A study of Mus musculus with 9 samples.

Results

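The E2F and retinoblastoma family was followed here as 9 genes in mouse splenic T cells. These were the activator genes E2f1, E2f2 and E2f3, the canonical repressor E2f4, the atypical repressors E2f7 and E2f8, and the pocket protein genes Rb1, Rbl1 and Rbl2. The 9 genes were looked up by symbol among the 49671 genes of the count table. The choice of members was made with earlier results of these data known. All 9 were among the 18374 genes with enough counts to be tested. Each RNA library came from CD3+ T cells of the spleen of F1 mus x cast females. Their C57BL/6 mothers carried a heterozygous Xist deletion and their fathers were M. m. castaneous, a cross bred for skewed X inactivation, and all groups share this background. The labels call the libraries of a group biological replicates and give no age. Of the 3 groups, with 3 libraries each, the unstimulated cells went into TRIzol straight after column enrichment. The stimulated cells had 48 hours of culture on plate-bound anti-CD3 (1 μg/ml) with soluble anti-CD28 (10 μg/ml). The inhibitor group had the same culture with 2.5 μM IMD-0354, which blocks IKK-beta, the kinase that releases NF-kB. The labels name no vehicle control and no cells cultured unstimulated, and culture and stimulation cannot be told apart.

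E2F proteins bind DNA, most of them as dimers with a DP protein, and switch on or hold down the genes for DNA replication and the cell cycle. In resting cells the pocket proteins RB (from Rb1), p107 (Rbl1) and p130 (Rbl2) hold E2F proteins in check. Cyclin-dependent kinases release them by phosphorylation when a cell enters the cycle, as naive T cells do after contact with antigen. E2F7 and E2F8 act without a DP partner or pocket protein and repress E2F target genes late in S phase. Much of this control acts on proteins, so that mRNA levels give only part of it.

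Total counts ran from 34009988 to 56221174 per library. The 8 T cell markers, Cd3e and Lck among them, summed to 1570 to 2420 CPM (counts scaled to library size and TMM factors) in every library. Markers of other cells were present in the unstimulated libraries, with summed levels of 538 to 1420 CPM for 8 B cell genes, 937 to 2020 for 8 myeloid genes, 168 to 194 for 5 NK cell genes and 48.6 to 967 for 8 erythroid genes. In stimulated libraries these sums were at most 78.7, 14.8, 17.4 and 6.46 CPM, and in inhibitor libraries at most 149, 58.7, 2.28 and 7.73 CPM. Epb42 was the sole marker with 0 counts in a whole group, the stimulated cells. In such bulk samples fewer cells of a type and less RNA per cell cannot be told apart. Unstimulated library 2 stood apart from its group with 967 CPM of erythroid markers, against 211 and 48.6 in libraries 1 and 3, and with 622 CPM of 5 proliferation markers (Mki67, Top2a, Plk1, Ccnb1 and Cdk1), against 166 and 95.3. Inhibitor library 1 also stood apart, with 30106 genes detected where the remaining libraries had 20547 to 23223. Results that rest on either are given with and without it.

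The promoters of several members hold the kind of site that E2F proteins themselves bind, and those stretches are shown here so that they can be read beside the levels. RefSeq start windows on GRCm38.p6, of 250 bases before and 50 after a start, were at hand for 7 of the 9 members, all but E2f4 and Rb1. An E2F match was taken as TTCCCGC or 1 of its variants on either strand. The first variant searched was TTCGCGC, the second was TTGCCGC and the third was TTGGCGC. A match was found in 9.57% of all 32851 windows. E2f3, E2f7, E2f8 and Rbl1 had such matches upstream of the start, E2f2 had a match only after it, and the windows of E2f1 and Rbl2 had none. The 250 upstream bases of E2f1 lie within an annotated exon and are not printed. In the upstream stretches below, read from 5′ to 3′ towards the start of the gene, capitals mark the E2F matches, and Rbl2 is shown as a member without a match. Whether matches go with the change with stimulation was not tested. The E2f1 window lies inside the annotated gene, so it does not hold the bases before that gene's outermost start.
E2f3, chr13:29986064-29986313, - strand: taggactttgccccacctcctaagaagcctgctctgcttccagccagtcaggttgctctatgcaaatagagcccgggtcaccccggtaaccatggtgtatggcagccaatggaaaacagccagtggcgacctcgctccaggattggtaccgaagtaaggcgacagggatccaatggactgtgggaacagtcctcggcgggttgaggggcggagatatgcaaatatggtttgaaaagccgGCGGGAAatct
E2f7, chr10:110745189-110745438, + strand: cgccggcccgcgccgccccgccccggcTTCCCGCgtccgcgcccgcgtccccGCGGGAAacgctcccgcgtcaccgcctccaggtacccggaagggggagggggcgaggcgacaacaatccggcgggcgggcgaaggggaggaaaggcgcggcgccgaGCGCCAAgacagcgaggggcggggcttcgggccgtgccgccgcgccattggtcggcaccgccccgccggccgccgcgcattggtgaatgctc
E2f8, chr7:48881597-48881846, - strand: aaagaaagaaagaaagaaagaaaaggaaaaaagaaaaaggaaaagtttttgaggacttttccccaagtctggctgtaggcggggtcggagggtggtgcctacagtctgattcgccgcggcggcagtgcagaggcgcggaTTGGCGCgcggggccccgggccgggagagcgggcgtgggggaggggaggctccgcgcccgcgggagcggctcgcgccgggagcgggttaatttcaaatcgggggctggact
Rbl1, chr2:157204535-157204784, - strand: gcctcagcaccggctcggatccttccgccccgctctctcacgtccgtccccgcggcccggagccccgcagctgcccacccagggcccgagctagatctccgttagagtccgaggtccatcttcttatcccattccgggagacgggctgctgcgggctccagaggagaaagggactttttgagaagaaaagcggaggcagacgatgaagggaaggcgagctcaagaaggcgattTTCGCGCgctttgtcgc
Rbl2, chr8:91069807-91070056, + strand: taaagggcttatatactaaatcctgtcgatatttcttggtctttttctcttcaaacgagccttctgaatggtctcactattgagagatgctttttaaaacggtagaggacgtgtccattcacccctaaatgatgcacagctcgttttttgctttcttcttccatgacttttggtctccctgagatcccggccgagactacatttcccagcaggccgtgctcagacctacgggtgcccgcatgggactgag
Counted from the first transcribed base as 0, the 3 E2f7 matches began at -223, -198 and -92, that of E2f8 at -111, the upstream match of E2f3 at -11 and that of Rbl1 at -17. After the start, E2f3 had a further match at 18 and E2f2 its only match at 40. A CHR element, searched as TTTGAA on either strand and known from genes of the G2 and M phases, occurred in 17.9% of all windows. It was found at -20 in E2f8, -23 in E2f3, -31 at the second start of E2f2 and -201 in Rbl2. The E2F match of E2f8 overlaps a CCAAT box on the other strand at -112, a motif present in 37.4% of windows. A match is a run of letters, not a demonstration of binding, and no match says only that these letters are not in the window.

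**Figure D1:**
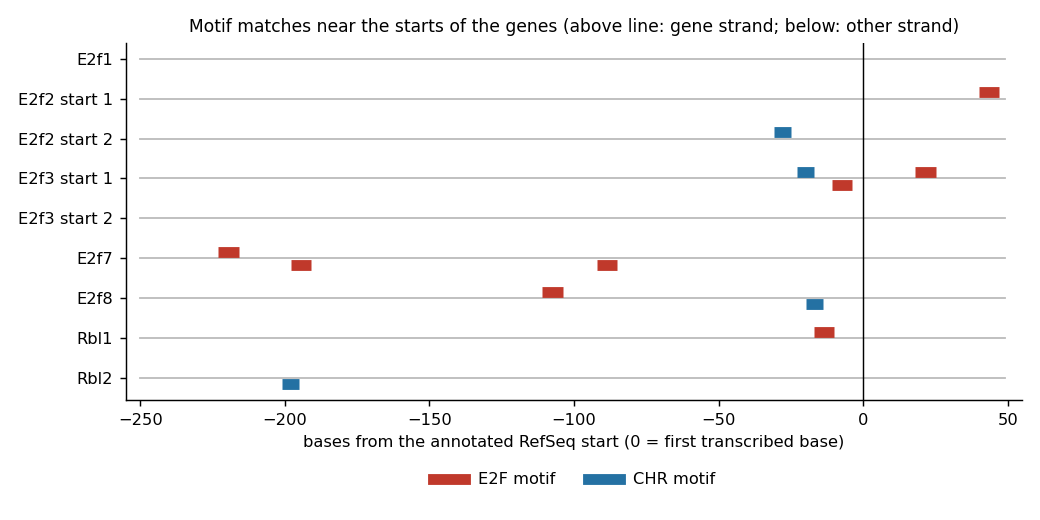
Positions of E2F and CHR motif matches (bars above a line for the gene strand, below it for the other strand) in the RefSeq start windows of 7 members, with bases from the start on the x axis. E2f7 has 3 E2F matches, all upstream, whereas the windows of E2f1 and Rbl2 have none. That of E2f1 lies inside the annotated gene.

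The first comparison asked how these genes differed between stimulated and unstimulated cells. Of the 9 members 6 rose (E2f1, E2f3, E2f4, E2f7, E2f8 and Rbl1), Rbl2 fell, and E2f2 and Rb1 did not pass the test. Over all 18374 genes 32% were called higher and 34% lower. A call means an adjusted p under 0.05 in edgeR's quasi-likelihood test with Benjamini-Hochberg adjustment over all genes tested, and "rose" and "fell" are used only for calls. The median log2 fold change of the 9 members was 1.16, against -0.05 for all genes. The second comparison, inhibitor against stimulated cells, had 4 members lower (E2f2, E2f4, E2f7 and E2f8) and none higher, against 22.8% of all genes called lower and 21.7% higher. At an unadjusted p under 0.05 the counts were likewise 4 lower and 0 higher, and both DESeq2 and limma voom also called 4 lower and 0 higher. The median over the members was -0.60, against 0.03 for all genes. Against unstimulated cells the inhibitor group had 4 members higher (E2f1, E2f3, E2f4 and Rbl1) and 2 lower (E2f2 and Rbl2), with 26.3% of all genes called higher and 26.1% lower. The 3 comparisons share their groups in pairs, so their values are set side by side and are not independent.

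**Figure D2:**
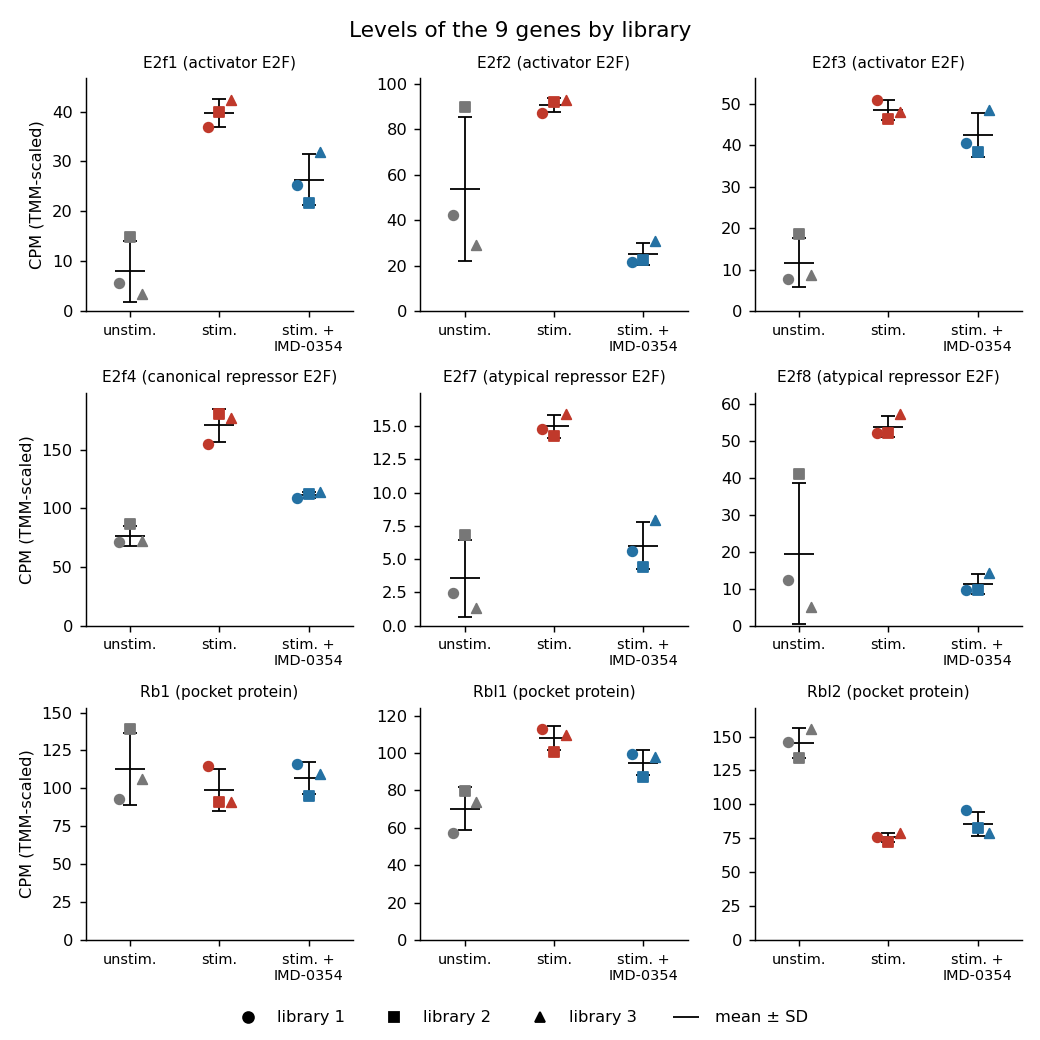
CPM of each of the 9 members (y axis, from 0) in the 9 libraries, by group on the x axis, with symbols for libraries 1 to 3 and bars for mean ± SD (n = 3). With the inhibitor E2f2, E2f4, E2f7 and E2f8 were called lower than in stimulated cells. E2f1 and Rbl1 were not called (edgeR adjusted p = 0.27 and 0.23), although their inhibitor libraries lie below every stimulated one. The share of all genes that separate in this way was not computed. E2f3 stays near its stimulated level, at 38.4 to 48.6 CPM against 46.2 to 51.0.

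E2f1 (ENSMUSG00000027490, chr2:154559407-154569892 on mm10, minus strand) encodes the activator best known for driving entry into S phase. Its level was 5.64, 14.9 and 3.34 CPM in unstimulated libraries 1 to 3. Stimulated libraries held 36.9, 40.0 and 42.4 CPM, and those with the inhibitor 25.4, 21.7 and 31.8 CPM. All 3 groups were apart from each other. E2f1 rose with stimulation by a log2 fold change of 2.32 ± 0.44 (approximate SE from the F statistic, edgeR adjusted p = 9.7e-04). Without unstimulated library 2 the change was 3.15 (adjusted p = 2.6e-06). With the inhibitor E2f1 remained above unstimulated cells by 1.72 ± 0.43 (adjusted p = 0.007), or 2.55 without that library. The difference between inhibitor and stimulated cells was -0.60 ± 0.42 (adjusted p = 0.27) and was not called, although the libraries did not overlap. It was called without unstimulated library 2 (adjusted p = 0.0264), with only the groups compared in the fit (adjusted p = 0.00741) and with no filter on low counts (adjusted p = 0.00993), and in none of the other 14 alternatives.

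E2f3 (ENSMUSG00000016477, chr13:29906575-29986063 on mm10, minus strand), another activator, was measured at 7.77, 18.6 and 8.68 CPM in unstimulated, 51.0, 46.2 and 48.0 in stimulated and 40.6, 38.4 and 48.6 CPM in inhibitor libraries. Here the inhibitor libraries overlapped the stimulated ones and lay well above all unstimulated ones. E2f3 rose with stimulation by 2.05 ± 0.29 (edgeR adjusted p = 1.3e-04) and stood 1.86 ± 0.29 above unstimulated cells in the inhibitor group (adjusted p = 3.7e-04). The inhibitor difference was -0.19 ± 0.28 (adjusted p = 0.61), and no alternative called it.

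E2f2 (ENSMUSG00000018983, chr4:136172394-136196057 on mm10, plus strand), the third activator, behaved otherwise. Unstimulated libraries held 42.0, 89.6 and 29.3 CPM, stimulated ones 87.0, 92.1 and 93.1, and inhibitor libraries 21.8, 22.6 and 30.7. Unstimulated library 2 was at the stimulated level, library 3 lay within the inhibitor range and library 1 between the ranges. The change with stimulation, 0.76 ± 0.33, was not called (edgeR adjusted p = 0.066), and it was called in 4 of 17 alternatives. These were limma voom (0.93, adjusted p = 0.0173), no filter on low counts (0.78, adjusted p = 2.2e-05), the fit without unstimulated library 2 (1.35, adjusted p = 1.3e-04) and that without inhibitor library 1 as well (1.32). E2f2 fell with the inhibitor by 1.86 ± 0.34 against stimulated cells (adjusted p = 0.0016), a call kept in 17 of 17 alternatives. Against unstimulated cells E2f2 was lower by a log2 fold change of -1.10 ± 0.34 (adjusted p = 0.019), which came down to -0.51 (adjusted p = 0.036) without unstimulated library 2. That call was lost in 3 of 17 alternatives. These were the fits without inhibitor library 1 (-1.01, adjusted p = 0.0566) and without inhibitor library 2 (-1.03, adjusted p = 0.0643). The last was the fit without both unstimulated library 2 and inhibitor library 1 (edgeR adjusted p = 0.0689).

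E2f4 (ENSMUSG00000014859, chr8:105297663-105305370 on mm10, plus strand), whose protein represses targets together with p107 and p130 in resting cells, was the most abundant member per length in every group. Its counts gave 70.8, 86.6 and 71.8 CPM in unstimulated, 154.5, 180 and 177 in stimulated and 109, 112 and 114 CPM in inhibitor libraries. The groups were apart from each other, with the inhibitor cells in between. E2f4 rose by 1.16 ± 0.10 with stimulation (edgeR adjusted p = 3e-06), fell by 0.61 with the inhibitor (SE 0.10, adjusted p = 6.3e-04) and in inhibitor cells was above unstimulated cells by 0.55 ± 0.10 (adjusted p = 8.9e-04). Each of these calls held in 17 of 17 alternatives.

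E2f7 and E2f8 encode the atypical repressors. E2f7 (ENSMUSG00000020185, chr10:110745439-110787384 on mm10, plus strand) was the lowest member, at 2.47, 6.82 and 1.32 CPM in unstimulated, 14.8, 14.2 and 15.9 in stimulated and 5.64, 4.42 and 7.92 CPM in inhibitor libraries. The inhibitor libraries overlapped the unstimulated ones and lay below the stimulated ones. E2f7 rose by 2.08 ± 0.49 with stimulation (edgeR adjusted p = 0.0036), or by 2.99 without unstimulated library 2. It fell with the inhibitor by 1.32 ± 0.47 (adjusted p = 0.045), and this call was lost in 8 of 16 alternatives, with adjusted p up to 0.137, but not without unstimulated library 2 (adjusted p = 0.00193). Against unstimulated cells the inhibitor difference was 0.76 ± 0.48 (adjusted p = 0.21), and 1.67 and called without unstimulated library 2 (adjusted p = 0.00144), 1 of 3 alternatives that called it.

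E2f8 (ENSMUSG00000046179, chr7:48866429-48881596 on mm10, minus strand) had the widest spread relative to its mean among the unstimulated libraries, at 12.4, 41.0 and 4.99 CPM. Stimulated libraries held 52.1, 52.1 and 57.2 CPM and inhibitor libraries 9.73, 9.52 and 14.2. All stimulated libraries were above all others, and the inhibitor libraries lay within the unstimulated range. The rise with stimulation, 1.47 ± 0.57, was just called (edgeR adjusted p = 0.043), and the call was lost in 12 of 17 alternatives (adjusted p up to 0.132). Without unstimulated library 2 it was 2.64 (adjusted p = 8.7e-05). E2f8 fell with the inhibitor by 2.27 ± 0.59 (adjusted p = 0.011), the largest difference among the members in that comparison, and was called in 17 of 17 alternatives. Inhibitor against unstimulated cells gave -0.80 ± 0.57 (adjusted p = 0.27), which turned to 0.37 (adjusted p = 0.375) without unstimulated library 2 and was called as lower without unstimulated library 3 (-1.25, adjusted p = 0.0259).

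None of the 3 pocket protein genes was called in inhibitor against stimulated cells. Rbl2 (ENSMUSG00000031666, chr8:91070057-91123844 on mm10, plus strand), whose product p130 is the main pocket protein of resting cells, was at 146, 134 and 156 CPM in unstimulated, 75.9, 72.6 and 78.8 in stimulated and 95.8, 82.3 and 78.6 CPM in inhibitor libraries. Both cultured groups were clearly below the unstimulated one and overlapped each other. Rbl2 fell by 0.94 with stimulation (SE 0.09, edgeR adjusted p = 1.2e-05) and was lower in inhibitor than in unstimulated cells by a log2 fold change of -0.76 ± 0.09 (adjusted p = 8.3e-05). The inhibitor difference was 0.18 ± 0.09 (adjusted p = 0.16).

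Rbl1 (ENSMUSG00000027641, chr2:157145893-157204534 on mm10, minus strand), which encodes p107 and is itself a known E2F target, had 57.4, 79.7 and 73.7 CPM in unstimulated, 113, 101 and 110 in stimulated and 99.6, 87.2 and 97.7 CPM in inhibitor libraries. It was higher in every cultured library than in every unstimulated one. Rbl1 rose by 0.62 ± 0.12 with stimulation (edgeR adjusted p = 0.0011) and by 0.43 ± 0.12 in inhibitor against unstimulated cells (adjusted p = 0.012). Under a stricter filter of 10 CPM the second value was 0.29, which was not called (adjusted p = 0.0677). With the inhibitor Rbl1 was at 87.9% of its stimulated mean (-0.19 ± 0.12, adjusted p = 0.23), and the libraries did not overlap.

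Rb1 (ENSMUSG00000022105, chr14:73183673-73325822 on mm10, minus strand), the retinoblastoma gene, gave 93.2, 139 and 106 CPM in unstimulated, 115, 91.3 and 90.9 in stimulated and 116, 95.1 and 109.5 CPM in inhibitor libraries. The groups overlapped in all 3 comparisons, with log2 differences of -0.19 ± 0.15, 0.11 ± 0.15 and -0.08 ± 0.15 (edgeR adjusted p = 0.3, 0.59 and 0.69). Upper-quartile scaling, under which the median over all tested genes was -0.27 in place of -0.05, gave Rb1 a called decrease with stimulation (-0.40, adjusted p = 0.0354). Rb1 shares 408 exon bases with Lpar6 and 488 with Rcbtb2, both on the opposite strand and both lower in stimulated cells (Lpar6 49.2 and 2.54 CPM, Rcbtb2 43.4 and 7.88 CPM, unstimulated and stimulated means without TMM scaling). The strand setting of the counting is not stated, so reads in these shared bases cannot be told apart. The same holds for Rbl2 with Aktip (693 bases) and with Gm45464 (892 bases), and for E2f7 with 1700020G17Rik (86 bases). It also holds for E2f8 with Gm2788 (610 bases, with Gm2788 under 0.43 CPM in each group mean).

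**Figure D3:**
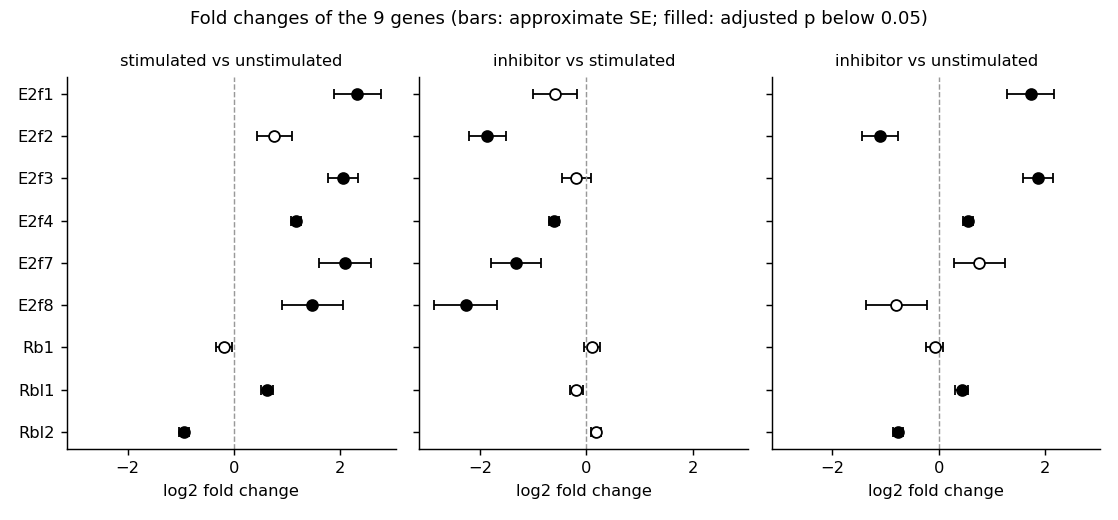
Log2 fold changes (x axis) of the 9 members in the 3 comparisons, with approximate SE as bars and filled points for adjusted p under 0.05. E2f2 and E2f8 have the largest decreases with the inhibitor, -1.86 and -2.27, and in inhibitor against unstimulated cells E2f1 and E2f3 are at 1.72 and 1.86 while E2f2 is at -1.10.

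Set per kilobase of annotated exon, so that genes can be compared, the unstimulated cells had E2f4 first at 31.2 ± 3.61 CPM per kb (SD, n = 3), then Rbl2 (19.2 ± 1.45) and Rb1 (18.8 ± 3.96). Rbl1 (11.7 ± 1.93) and E2f2 (11.0 ± 6.52) followed, then E2f8 (3.57 ± 3.49), E2f1 (2.53 ± 1.95), E2f3 (2.15 ± 1.11) and E2f7 (0.393 ± 0.322). In this order Rbl2 and Rb1 overlapped, as did E2f8, E2f1 and E2f3. E2f2, at 5.99 to 18.4 CPM per kb, overlapped Rbl2, Rb1, Rbl1 and E2f8, so its place was not resolved among them. In each unstimulated library E2f2 had more counts per length than E2f1 and E2f3. In stimulated cells E2f4 (69.6 ± 5.72) was followed by E2f2 (18.6 ± 0.673), Rbl1 (18.0 ± 1.07) and Rb1 (16.5 ± 2.28), which overlapped, then by E2f1 (12.6 ± 0.887), Rbl2 (10.0 ± 0.414), E2f8 (9.88 ± 0.536), E2f3 (8.92 ± 0.447) and E2f7 (1.66 ± 0.0935), of which Rbl2 and E2f8 overlapped. With the inhibitor E2f2 stood behind the other activators, at 5.12 ± 1.01 against 8.34 ± 1.62 for E2f1 and 7.83 ± 0.992 for E2f3, which overlapped each other. E2f4 led again at 45.5 ± 1.04, ahead of Rb1 (17.8 ± 1.77) and Rbl1 (15.8 ± 1.11), which overlapped, and Rbl2 (11.3 ± 1.20), while E2f8 (2.05 ± 0.487) and E2f7 (0.665 ± 0.197) came last. These lengths count every annotated exon of a gene, whether or not the cells use it.

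Ratios between members within a library do not depend on how libraries were scaled. The log2 ratio of E2f3 over E2f2 was -2.44, -2.27 and -1.75 in unstimulated, -0.77, -0.99 and -0.96 in stimulated and 0.90, 0.77 and 0.66 in inhibitor libraries. E2f1 over E2f2 went the same way, from -2.90, -2.58 and -3.13 over -1.24, -1.20 and -1.13 to 0.22, -0.06 and 0.05. The 3 groups were apart from each other in both ratios. For E2f1 over E2f8 the inhibitor libraries (1.38, 1.19 and 1.16) lay above the stimulated (-0.50, -0.38 and -0.43) and the unstimulated ones (-1.13, -1.45 and -0.58). E2f3 over E2f8 was at 2.06, 2.01 and 1.77 with the inhibitor, -0.03, -0.17 and -0.25 in stimulated and -0.67, -1.14 and 0.80 in unstimulated libraries.

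Taken as groups, the mean log2 CPM of the 3 activators minus that of the 3 repressors was -0.08, 0.01 and 0.28 in unstimulated libraries and 0.15, 0.12 and 0.08 in stimulated libraries. It was 0.64, 0.66 and 0.63 in inhibitor libraries, above all others. The unstimulated range overlapped the stimulated one. Against E2f7 and E2f8 alone the activators were at 1.93, 2.04 and 1.77 in inhibitor, 0.98, 1.03 and 0.93 in stimulated and 1.15, 0.81 and 1.89 in unstimulated libraries. Against E2f4 alone they were at -1.95, -2.08 and -1.65 in inhibitor libraries, overlapping the stimulated ones (-1.50, -1.70 and -1.62). Of the 3 activators in these means, E2f2 was called lower with the inhibitor and E2f1 and E2f3 were not called. With E2f1 and E2f3 alone against E2f7 and E2f8, the difference was 2.12, 2.15 and 1.89 in inhibitor libraries, 0.64, 0.66 and 0.58 in stimulated and 0.26, 0 and 1.07 in unstimulated libraries. That narrower choice was made after the values had been seen. E2f4 over Rbl2, an E2F and a pocket protein that pair in resting cells, had log2 ratios of -1.05, -0.63 and -1.12 in unstimulated, 1.03, 1.31 and 1.17 in stimulated and 0.18, 0.45 and 0.53 in inhibitor libraries, with no overlap. Rbl1 over Rbl2 likewise went from -1.35, -0.75 and -1.08 over 0.58, 0.47 and 0.48 to 0.06, 0.08 and 0.31.

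**Figure D4:**
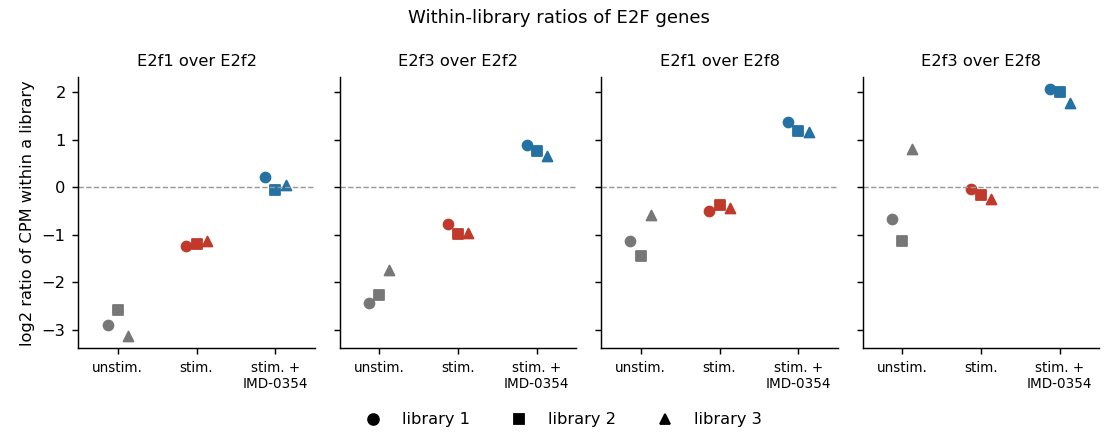
Log2 ratios of CPM within each library (y axis, 0 for equal CPM) for E2f1 and E2f3 over E2f2 and over E2f8, by group on the x axis with a symbol per library. Over E2f8, all inhibitor libraries are above 1 and all stimulated ones below 0.

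Among the unstimulated libraries, library 2 exceeded the mean of the other libraries of its group 4.72-fold for E2f8, 3.60-fold for E2f7, 3.32-fold for E2f1, 2.51-fold for E2f2 and 2.27-fold for E2f3. The factor was 1.40 for Rb1, 1.22 for Rbl1, 1.21 for E2f4 and 0.886 for Rbl2. The same library held the most erythroid, myeloid and B cell marker counts of its group (967, 2020 and 1420 CPM summed) and the fewest T cell marker counts (1570 CPM). The part of other cells in its E2F levels was not tested. In the inhibitor group, library 3 was highest for all 5 of E2f1, E2f2, E2f3, E2f7 and E2f8 and for the proliferation markers (431 CPM summed, against 217 and 216). In the stimulated group these markers spanned 2130 to 2210 CPM.

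The DP partners and the remaining E2F genes were measured alongside. Tfdp1, which encodes the main DP partner, had 30.4, 60.4 and 30.9 CPM in unstimulated, 216.5, 221 and 228 in stimulated and 88.7, 94.0 and 115 CPM in inhibitor libraries. The 3 groups were apart. Tfdp1 rose by 2.45 ± 0.24 with stimulation (edgeR adjusted p = 1.2e-05), fell by 1.16 with the inhibitor (adjusted p = 0.0027) and remained 1.29 ± 0.24 above unstimulated cells (adjusted p = 0.0011). Tfdp2, a second DP gene, was at 38.3, 85.2 and 30.7 CPM in unstimulated and 25.9 to 29.8 CPM in stimulated cells. It fell with stimulation by 0.88 (adjusted p = 0.028), a call lost without unstimulated library 2 (-0.31, adjusted p = 0.0511) and without each stimulated library (adjusted p = 0.0579 to 0.0838). E2f6, a repressor that acts without pocket proteins, rose from 12.3 ± 0.05 to 22.3 ± 1.27 CPM (adjusted p = 8.8e-05) and fell to 17.5 ± 1.89 with the inhibitor (adjusted p = 0.029), and the latter call was lost in 9 of 17 alternatives (adjusted p = 0.0536 to 0.126), among them those without stimulated library 1, 2 or 3 or inhibitor library 1 or 2. E2f5 was at 8.49 ± 2.23, 11.4 ± 0.90 and 11.9 ± 0.91 CPM and was called only in inhibitor against unstimulated cells (0.49, adjusted p = 0.049), a call lost in 14 of 17 alternatives.

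Of the kinases and cyclins that phosphorylate pocket proteins, 6 of 9 genes rose with stimulation and Ccnd1 fell, and 7 fell and Ccnd2 rose with the inhibitor (medians 1.68 and -0.96). Over all genes 32% rose and 34% fell with stimulation, and 22.8% fell and 21.7% rose with the inhibitor. Cdk6 rose by 2.26 ± 0.20 (edgeR adjusted p = 5.2e-06), from 154 ± 51.7 to 739 ± 71.1 CPM, and was at 355 ± 20.4 with the inhibitor. Ccnd2, the cyclin D2 gene, went from 722 ± 84.5 to 1330 ± 7.46 CPM with the inhibitor (0.89 ± 0.16, adjusted p = 0.0014). Ccna2, encoding the S phase cyclin A2, was at 28.7 ± 31.6 in unstimulated, 220 ± 6.11 in stimulated and 20.2 ± 8.42 CPM in inhibitor cells. Against unstimulated cells the inhibitor difference of Ccna2 was -0.50 (adjusted p = 0.53, edgeR), and 0.95 and called without unstimulated library 2 (adjusted p = 0.0252). Against unstimulated cells the inhibitor group had 4 of the 9 genes higher and 2 lower, where 26.3% of all genes were higher and 26.1% lower. Without unstimulated library 2 the count higher was 7. Of 6 tested genes for inhibitors of these kinases (Cdkn2a had too few counts), 2 rose and 2 fell with stimulation, close to the shares over all genes (32% and 34%). The count that fell was 1 in 8 of 17 alternatives, among them those without unstimulated library 1 or 3 or stimulated library 1, 2 or 3. In inhibitor against stimulated cells 3 of the 6 genes fell and 1 rose (median -1.22). Against unstimulated cells 4 were lower and 2 higher in the inhibitor group (median -1.05). Of these, Cdkn2c was not called without unstimulated library 2 (-0.33, edgeR adjusted p = 0.237). Cdkn1a rose from 3.33 ± 0.68 to 226 ± 5.16 CPM (adjusted p = 6.6e-09) and fell to 34.7 ± 5.83 with the inhibitor. Cdkn1b, encoding p27, a brake on the cycle of resting cells, fell with stimulation by 1.53 (adjusted p = 3.4e-05), to 87.7 ± 23.1 CPM from 253 ± 40.5, and was at 114 ± 8.16 with the inhibitor.

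The MuvB core joins E2F4 and p130 to form the DREAM repressor in resting cells, and later joins B-Myb and FoxM1 to activate mitotic genes. Of 7 genes 4 rose with stimulation (Lin54, Rbbp4, Mybl2 and Foxm1), and the same 4 fell with the inhibitor while Lin37 rose. Mybl2, the B-Myb gene, went from 8.75 ± 7.42 to 56.3 ± 6.53 CPM with stimulation (2.69 ± 0.49, edgeR adjusted p = 7.7e-04) and to 12.6 ± 2.88 with the inhibitor (-2.16 ± 0.48, adjusted p = 0.0047). Foxm1 had 14.1 ± 8.90, 92.3 ± 8.45 and 18.9 ± 5.78 CPM. Neither was called between inhibitor and unstimulated cells (0.53 and 0.42, adjusted p = 0.38 and 0.36). Without unstimulated library 2 both were called higher there, Mybl2 by 1.49 (adjusted p = 7.5e-04) and Foxm1 by 1.07 (adjusted p = 0.00228). Of 10 genes for corepressors and chromatin partners of RB, 5 rose (such as Rbbp7 and Suv39h1) and 4 fell (such as Arid4a and Arid4b) with stimulation, and with the inhibitor 5 fell and 4 rose. Beside both lists, 32% of all genes were higher and 34% lower with stimulation, and 22.8% lower and 21.7% higher with the inhibitor. Arid4a, encoding an RB-binding protein, was at 174 ± 35.3, 57.4 ± 4.36 and 87.1 ± 4.05 CPM.

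E2F target genes of the G1/S transition and genes of G2 and M were followed as separate lists, and no test compared the lists with each other. All 30 G1/S targets rose with stimulation (median 2.18), and 26 fell with the inhibitor (median -1.09), the others being Tyms (-0.91, adjusted p = 0.085), Rpa2 (-0.55, adjusted p = 0.061), Chek1 (-0.93, adjusted p = 0.076) and Brca1 (-1.18, adjusted p = 0.087), all by edgeR. All 30 were lower with limma voom and without unstimulated library 2. Over all genes 32% were higher with stimulation and 22.8% lower with the inhibitor. In inhibitor against unstimulated cells 22 of the 30 were higher (median 0.98), against 26.3% of all genes, and 27 without unstimulated library 2. Cdc45, of the replicative helicase, had 4.10, 15.6 and 3.65 CPM in unstimulated, 90.3, 93.2 and 101 in stimulated and 25.8, 22.6 and 38.7 CPM in inhibitor libraries. It remained above unstimulated cells by 1.90 ± 0.48 (adjusted p = 0.0074), as did the checkpoint kinase gene Chek1 (2.11 ± 0.41, adjusted p = 0.0015). Rrm2, a subunit of ribonucleotide reductase, fell most among the G1/S targets with the inhibitor (-2.78 ± 0.62, adjusted p = 0.0048), to 29.5, 28.6 and 56.2 CPM from 258, 250 and 279.

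All 18 G2/M genes also rose with stimulation (median 3.27), and all 18 fell with the inhibitor (median -3.55). The shares over all genes were 32% and 22.8%. Against unstimulated cells their median in the inhibitor group was -0.33, with 3 lower (Ccnb2, Plk1 and Cenpa) and 15 not called. Of all genes 26.1% were lower in this comparison and 26.3% higher. Without unstimulated library 2 the counts were 8 higher and 2 lower, and only Ccnb2, Plk1 and Cenpa of the 18 had a negative value. The comparison with unstimulated cells thus rested on that library. Without inhibitor library 2 the count was 1 lower. Plk1, a mitotic kinase, had 9.06, 25.1 and 7.26 CPM in unstimulated, 129, 130 and 141 in stimulated and 5.48, 4.81 and 7.88 CPM in inhibitor libraries. Its call in inhibitor against unstimulated cells (-1.18, adjusted p = 0.031, edgeR) was lost without unstimulated library 2 (-0.43, adjusted p = 0.091). Ube2c, which helps to mark mitotic cyclins for breakdown, fell by 4.88 with the inhibitor (adjusted p = 9.8e-04, edgeR). In the start windows an E2F match was found for 17 of 26 G1/S targets (65.4%), 2 of 15 G2/M genes (13.3%) and 5 of 7 members (71.4%), against 10.9% of 27025 genes. A CHR match was found for 4 of 26 G1/S targets (15.4%), 10 of 15 G2/M genes (66.7%) and 4 of 7 members (57.1%), against 20.2% of all genes.

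**Figure D5:**
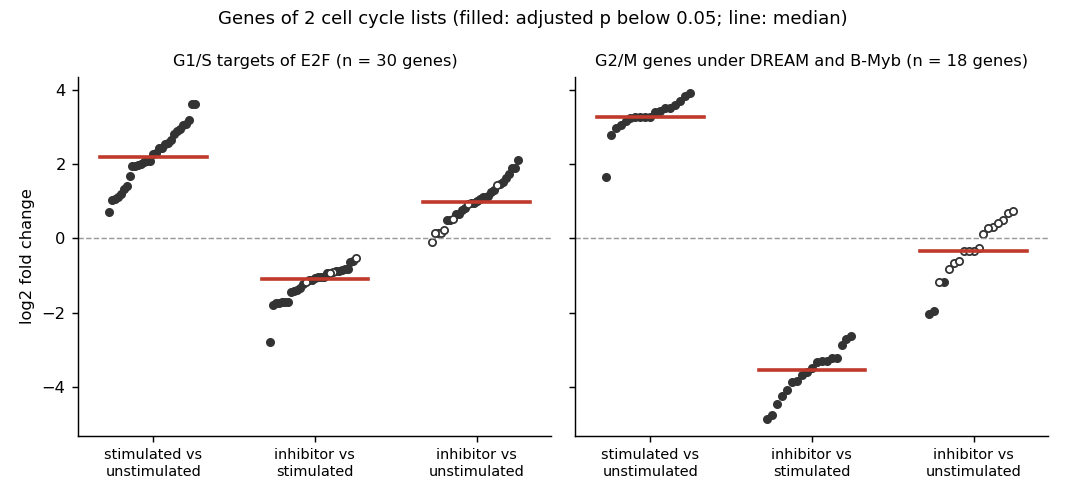
Log2 fold changes (y axis) of 30 G1/S targets of E2F and 18 G2/M genes in the 3 comparisons, a point per gene (filled for adjusted p under 0.05) and a line at the median. With the inhibitor against unstimulated cells the G1/S median is 0.98 and the G2/M median -0.33. The latter rests on unstimulated library 2, without which only Ccnb2, Plk1 and Cenpa of the 18 G2/M genes have a negative value.

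The genes with the most similar pattern to a member were found as those with the smallest root mean square difference of centred log2 CPM over the 9 libraries, among 8929 genes of at least 10 CPM. For E2f2 these were Cdkn2c (0.109), which encodes the kinase inhibitor p18, Eif2ak2 (0.193) and Dna2 (0.203). Cdkn2c had 7.59, 17.8 and 6.04 CPM in unstimulated, 18.7, 16.6 and 18.7 in stimulated and 4.56, 4.53 and 7.12 CPM in inhibitor libraries. E2f1 was closest to Tyms, the thymidylate synthase gene (0.227), Akap1 (0.256) and Dtl (0.257). Among the genes closest to E2f3 were Prnp (0.176) and 1810055G02Rik (0.234), and E2f7 was closest to Ccne1, the cyclin E1 gene (0.210), Cenpn (0.261) and Atad5 (0.263). The nearest genes to E2f8 were C1qtnf12 (0.214), Spire1 (0.305) and the kinetochore gene Knl1 (0.313). Of the remaining members, E2f4 lay near Vcp-rs, Snrpc and Eif4h (0.064 to 0.076), Rbl1 near Prune1, Ube2v2 and Wdr11 (0.046 to 0.071), Rbl2 near Serinc3, Stk24 and Ano6 (0.071 to 0.075) and Rb1 near Eps15, Fmr1 and Vps26a (0.107 to 0.112). Likeness here is a description over the same 9 libraries and their groups, and was not tested.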

How the data were processed

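The deposited table held whole-number read counts per gene for 9 libraries, with no normalization by the authors. STAR 2.7.1a and featureCounts with mm10 were used per the submitters' processing notes. The kit was stranded per the labels' protocols. Annotation release, strand setting of the counting and treatment of read pairs: not given in the sources used here. Even numbers made up 70.6% to 78.5% of counts from 1 to 10 per library. Names, positions and exon lengths came from GENCODE M21 on mm10 (49412 of 49671 identifiers matched).

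Genes were filtered with filterByExpr and scaled with TMM (factors 0.925 to 1.122) in edgeR 4.0.16 (R 4.3.3). All 9 libraries entered a quasi-likelihood fit with group as its term (6 residual degrees of freedom, two-sided tests), tested on simulated data. Alternatives used DESeq2 1.42.0, limma 3.58.1 (voom), other filters, scaling and sample sets, and a replicate block. Within groups, libraries differed by more than counting noise (chi-square over its degrees of freedom, 32.7 to 132), and each entered as a sample. The approximate SE is the absolute fold change divided by the root of F. Whether replicates are separate animals is not stated, so p-values reflect only spread between these libraries, possibly technical. Named genes of each list are up to 3 called genes per direction with the largest fold change, at least 10 CPM and no overlap, beside lists of 4 genes given whole, and for each member the 3 genes of most similar pattern. An item that this rule names is not reported here. Others named were chosen after their values were seen. The members and lists were chosen with earlier results of these data known.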

Additional observations from a re-analysis of the deposited data

How the results depend on the processing

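Over 17 alternatives (16 planned, and the joint removal of unstimulated library 2 and inhibitor library 1, chosen after seeing the data), 415 of 456 refitted fold changes of the members kept direction and side of the threshold, 24 lost a call, 13 gained a call and 4 reversed. E2f7 was below the stricter filter of 10 CPM, which gave it no value. Upper-quartile factors called 2 members lower with stimulation, where the main analysis called 1, and the joint removal called 1 member lower in inhibitor than in unstimulated cells, where the main analysis called 2. Leaving out a library gave 5 to 7 members higher and 1 lower with stimulation, 3 to 5 lower with the inhibitor, and 4 to 5 higher and 1 to 3 lower in inhibitor against unstimulated cells. Without unstimulated library 2 the inhibitor difference from unstimulated cells reversed for E2f8 (0.37) and Rb1 (0.10), and with the joint removal it was 0.44 and 0.02. Leaving out a library, it ranged from -1.25 for E2f8 and from -0.20 for Rb1. For E2f5, inhibitor against stimulated cells, it reversed to -0.004 without inhibitor library 2 and was at most 0.12, with the joint removal. The cause was not tested.

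Among genes of at least 10 CPM 3455 rose and 3487 fell with stimulation, against 5880 and 6246, and 2934 rose and 2918 fell in inhibitor against unstimulated cells, against 4826 and 4800, since fewer genes were tested. Of 816 counts for lists and all genes, 57 moved by over 1.5 times. The G2/M count lower in inhibitor against unstimulated cells was 3 in the main analysis, 7 with no filter and 1 with limma voom. Deviations from group means were correlated between libraries of different groups. Same-numbered stimulated and inhibitor libraries had correlations of 0.144, 0.107 and 0.078, and differently numbered ones -0.105 to 0.026. Same-numbered pairs with an unstimulated library had -0.194 to 0.005. Whether replicate numbers pair the libraries was not tested. With the replicate block 6 members rose and 1 fell with stimulation, 3 fell with the inhibitor (E2f7 lost its call, adjusted p = 0.0751), and 4 rose and 2 fell in inhibitor against unstimulated cells.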
